A study of Mus musculus with 8 samples.

Results

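The MHC class I presentation genes examined here are 10 genes of antigen presentation by major histocompatibility complex class I: H2-D1, H2-K1 and H2-T23, B2m, Tap1, Tap2 and Tapbp, Psmb8 and Psmb9, and Nlrc5. They were chosen by name, and their regions are the rows of the deposited table that carry one of these gene names. The 10 genes are among 18707 gene names in the table and hold 43 of its 129304 regions. The table assigns a region to the gene with the nearest start site, so a region far from any start site is tied to its gene by position only.

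ChIP-seq was used to map H3K27ac, the acetylated form of lysine 27 of histone H3 that is found at promoters and enhancers in use, in nuclei sorted from brains of C57BL/6 mice aged 2 years. Nuclei were positive for PU.1, a transcription factor of myeloid cells, and negative for the oligodendrocyte-lineage factor OLIG2 and the neuronal protein NEUN. Wild-type (WT) mice were compared with mice lacking Grn (GrnKO), the gene of the lysosomal and secreted protein progranulin. Each genotype had 2 H3K27ac libraries and 2 matching input libraries of chromatin that was not immunoprecipitated, and each replicate pooled nuclei of 2 mice; the p-values therefore measure the spread between pools.

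Class I molecules display peptides from inside the cell to CD8 T cells and natural killer cells. The proteasome, in its immunoproteasome form with Psmb8 and Psmb9, cuts proteins into peptides, the Tap1-Tap2 transporter pumps the peptides into the endoplasmic reticulum, and tapasin (Tapbp) holds empty class I molecules at the transporter while peptides are loaded. The class I molecule itself is a heavy chain, such as those of H2-D1 and H2-K1, paired with beta-2 microglobulin (B2m), and Nlrc5 is a transcriptional activator of class I genes. In resting microglia class I genes are expressed at low to moderate levels and are induced by interferons and with age.

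The promoters of the members that sit inside a listed region and that the results below turn on are shown here, because the pathway's genes are known to share short promoter boxes. They were taken from RefSeq for build GRCm38.p6, whose gene starts matched the start sites used by the table for 8 of the 10 members; the exceptions were H2-K1, by 272 bp, and Nlrc5. The sequences run 5′ to 3′ on the strand of the gene and stop just before the start site. The 225 bases between Psmb9 and Tap1, which are transcribed away from each other, are given on the strand of Tap1. Of the 10 members 8 matched a promoter entry; Tap2 and Nlrc5 did not. The H2-K1 entry lies inside the RefSeq span of the gene, upstream of the start site that the table uses, and is compared but not printed. Capitals mark the motif matches described after them.
H2-D1, chr17:35262844-35263093, plus strand: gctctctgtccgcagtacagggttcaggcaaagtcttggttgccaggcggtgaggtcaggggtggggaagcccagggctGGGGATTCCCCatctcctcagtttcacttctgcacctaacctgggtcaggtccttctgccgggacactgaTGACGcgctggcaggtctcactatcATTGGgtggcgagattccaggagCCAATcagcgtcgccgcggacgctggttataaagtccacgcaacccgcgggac
H2-T23, chr17:36032702-36032951, minus strand: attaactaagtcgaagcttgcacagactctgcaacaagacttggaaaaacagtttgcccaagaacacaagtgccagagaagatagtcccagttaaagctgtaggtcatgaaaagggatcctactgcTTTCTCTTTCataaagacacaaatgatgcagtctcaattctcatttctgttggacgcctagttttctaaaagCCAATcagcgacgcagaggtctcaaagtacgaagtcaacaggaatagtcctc
B2m, chr2:122147437-122147686, plus strand: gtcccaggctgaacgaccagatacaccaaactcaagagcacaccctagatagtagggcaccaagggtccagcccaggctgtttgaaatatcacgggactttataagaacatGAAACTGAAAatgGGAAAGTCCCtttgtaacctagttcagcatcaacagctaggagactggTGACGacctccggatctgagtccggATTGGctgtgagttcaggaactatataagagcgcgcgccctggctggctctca
Psmb9-Tap1, chr17:34187331-34187555, plus strand: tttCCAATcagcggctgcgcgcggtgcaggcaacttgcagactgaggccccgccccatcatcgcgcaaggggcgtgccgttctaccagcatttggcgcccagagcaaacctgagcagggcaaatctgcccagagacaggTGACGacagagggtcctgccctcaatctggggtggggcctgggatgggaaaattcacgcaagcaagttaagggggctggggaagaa

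Motifs were searched on both strands of the 250 bases before each start site, in the 8 matched members and in all 32851 promoters of the table. The Y box (CCAAT, or ATTGG on the other strand) was found in 7 of the 8 members and in 33.8% of all promoters. The 5-base core of the X2 box (TGACG) was found in 5 of 8, namely B2m, H2-D1, H2-K1, Psmb9 and Tap1, and in 17.8% of all promoters. Psmb9 and Tap1 count the same X2 core and the same Y box of their shared stretch, read on opposite strands, so these are not separate matches. The core of the interferon-stimulated response element (GAAA, any 2 bases, GAAA) was found in B2m and H2-T23 and in 2.98% of all promoters. A strict kappaB motif (GGG, any 2 bases, TTTCC) matched B2m only among the members and was found in 1.41% of all promoters. In B2m it overlapped no match of the motifs named before it. A wider kappaB consensus, added after the sequences had been seen, matched B2m, H2-D1 and H2-K1 and 7.25% of all promoters. Its B2m match is the same stretch as the strict one. In H2-D1 and H2-K1 it matched at 2 overlapping positions on both strands. These matches describe the letters in these windows and no more.

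The promoters of H2-D1 and H2-K1 were near copies of each other. Of 190 aligned bases 166 were identical (87.4%), with a longest shared run of 47 bases. How reads that fit more than 1 of these copies were placed is not given in the sources used here, so the values of the heavy-chain genes are uncertain to that extent.

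The H3K27ac libraries held 15491642.5 to 20030832 tags and the inputs 4078179 to 14415969. Of all tags, 49.4% fell in the listed regions in WT replicate 1 and 63.3%, 64.8% and 65.7% in the other H3K27ac libraries, so that WT replicate 1 stood apart. Values are given as TMM-scaled tags: the deposited tags per 10000000, divided by a factor per library (0.825 and 1.04 in WT, 1.08 and 1.08 in GrnKO) that evens out such differences. Relative to these, the deposited scale alone raised the median log2 change of all regions from -0.0020 to 0.22 and that of all genes from -0.05 to 0.18. In the region at the Grn start site, WT held 357 and 300.1 TMM-scaled tags and both GrnKO libraries held none, as their labels have it. In regions within 1000 bp of their start sites, the microglial genes P2ry12 and Cx3cr1 summed to 1493 and 1500.2 and to 1436 and 1616 in WT, against 1396 and 1283 and 1265 and 1173 in GrnKO. Tmem119, also microglial, summed to 458 and 474 in WT against 308 and 345 in GrnKO, and Spi1 and Csf1r ranged from 942 to 1344 over the 4 libraries with overlapping groups for Spi1 and lower GrnKO values for Csf1r. Of the other cell types, monocyte genes had no such region, and the single T and NK cell gene (Cd2) and neuronal gene (Snap25) with one stayed at or below 3.91. The border macrophage genes with a region (3 of 5) summed to 275 and 299 in WT and to 420.0 and 333 in GrnKO, of which Ms4a7 held 37.1 and 29.6 in WT against 132 and 105 in GrnKO. The other border macrophage genes overlapped, Mrc1 at 182 and 228 against 231 and 197 and Pf4 at 55.1 and 41.1 against 57.4 and 30.5. Endothelial Flt1, the only 1 of 3 with a region, stood at 12.5 and 31.4 in WT and at 144 and 144 in GrnKO, while astrocyte Slc1a3 ranged from 176 to 211 over all 4 libraries with overlapping groups. The 4 oligodendrocyte genes summed to between 66.3 and 101 per library, also overlapping; among them Mog stood at 54.0 and 47.7 in WT against 27.4 and 25.1 in GrnKO, and Mbp at 45.0 and 18.6 against 51.8 and 44.8. The part of these cell types in the results below was not tested. In such bulk samples, fewer nuclei with the mark and less of the mark per nucleus cannot be told apart.

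All 10 genes passed the filter on low values when their regions were summed, and 35 of the 43 regions passed it singly; the 8 that did not are 4 of H2-K1, both of Nlrc5, 1 of B2m and 1 of Psmb9. Among the 35 tested regions 1 was higher in GrnKO (limma, adjusted p under 0.05), where 6.8% of all 80728 tested regions were, and none was lower, where 2.92% of all were. At an unadjusted p under 0.05 the member regions numbered 1 higher and 6 lower, against 13.9% and 9.98% of all regions, and edgeR and DESeq2 likewise called none lower at an adjusted p under 0.05. With the deposited scale alone 6583 regions of the table were higher and 333 lower, in place of 5488 and 2355, and the counts among member regions stayed 1 and 0. Both GrnKO libraries lay below both WT libraries in 10 of the 35 regions (28.6%, against 25.6% of all regions) and above them in 4 (11.4%, against 27% of all regions), and the groups overlapped in 21. Of the 43 member regions 26 overlap another member region in position. Those of Psmb9 and Tap1 at their shared promoter are among them, and they recur in the lower counts. The counts are therefore not of separate measurements. The median log2 change, GrnKO minus WT, was -0.18 over the 35 regions and -0.0020 over all.

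Summed per gene, H2-D1 was the 1 member called higher (8.6% of 15380 tested genes were) and none was called lower (5.88% of genes were). At an unadjusted p under 0.05, 1 member was higher and 2, Tap2 and Psmb9, were lower, against 13.8% and 13.1% of all genes, and DESeq2 called 1 lower (Psmb9) and edgeR none. The median log2 change was -0.14 over the 10 genes and -0.05 over all genes, and with the deposited scale alone it was 0.08 over the 10 and 0.18 over all. On the TMM scale both GrnKO libraries lay above both WT libraries for H2-D1 and Nlrc5 (25.4% of all genes did; Nlrc5 passed the filter only through GrnKO) and below them for B2m, Tap1, Tap2, Psmb8 and Psmb9 (29.4% of all genes did), while H2-K1, H2-T23 and Tapbp overlapped. On the deposited scale, where the median of all genes was 0.18, H2-D1, H2-T23, Tapbp and Nlrc5 lay above and Tap1, Tap2 and Psmb9 below. The shares of all genes that did so on that scale were not computed, so these placings have no background beside them.

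**Figure D1:**
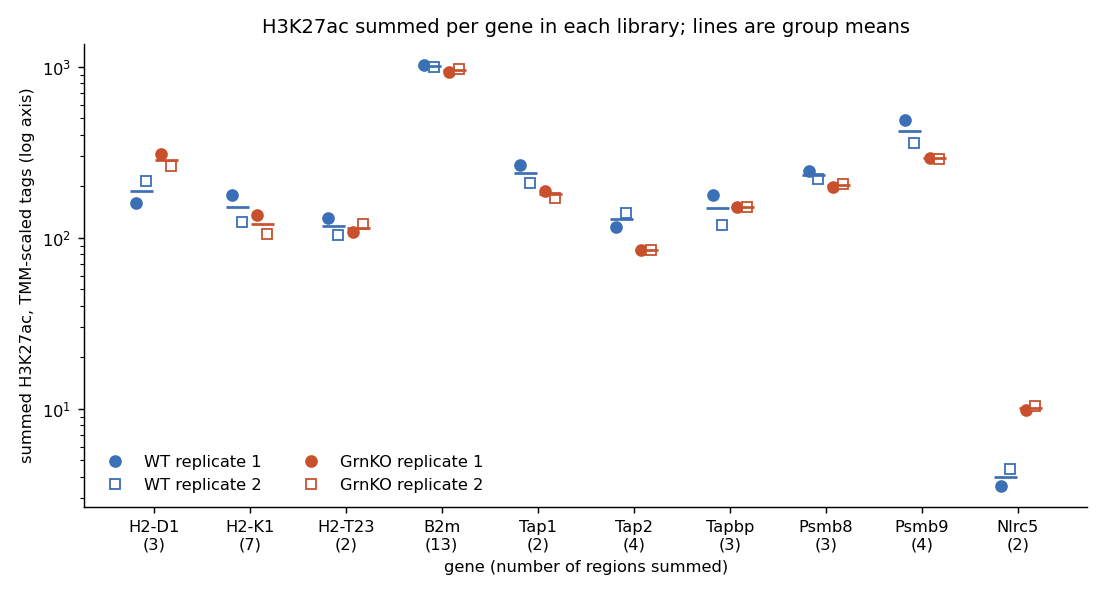
H3K27ac summed over the regions of each of the 10 genes, in TMM-scaled tags on a log axis, for the 2 WT (blue) and 2 GrnKO (red) libraries, with lines at the group means. Both GrnKO points lie above both WT points for H2-D1 and Nlrc5 and below them for B2m, Tap1, Tap2, Psmb8 and Psmb9, and sums over different numbers of regions are not comparable between genes.

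Of the heavy chains, H2-D1, a classical heavy chain that presents peptides to CD8 T cells, rose, while H2-K1, the other classical heavy chain of this strain, and H2-T23, which encodes the non-classical Qa-1 molecule that binds receptors of natural killer cells, did not pass the test. The 3 regions of H2-D1 (chr17:35263094-35267497, plus strand) summed to 159 and 215 TMM-scaled tags in WT and to 308 and 264 in GrnKO. Both GrnKO pools were above both WT pools. The means were 187 ± 40.0 and 286 ± 31.2 (SD, n = 2), and the log2 change was 0.62 (SE 0.193, limma adjusted p = 0.0467). This call sits at the threshold and rested on single libraries: the adjusted p was 0.119 without WT replicate 1, 0.396 without GrnKO replicate 1 and 0.125 without GrnKO replicate 2, with log2 changes of 0.40, 0.51 and 0.73, and 0.000223 without WT replicate 2. It was also lost with quantile normalization (limma adjusted p = 0.0691), and over all its settings the adjusted p ranged up to 0.566, when only the region at the start site was kept.

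Most of the H2-D1 difference came from an intergenic region upstream of the gene. This region, chr17:35257967-35258767, has its centre 4727 bp before the H2-D1 start site and is the 1 member region past the threshold. It held 38.3 and 68.9 TMM-scaled tags in WT and 131 and 106 in GrnKO. Before any scaling these were 49 and 131.5 tags in WT and 231.5 and 230.0 in GrnKO, recovered through the library totals. The GrnKO values did not overlap the WT values, and the WT libraries differed between themselves by more than the GrnKO libraries did. The means were 53.6 ± 21.6 in WT and 119 ± 17.6 in GrnKO (SD, n = 2), and the log2 change was 1.18 (SE 0.279, limma adjusted p = 0.0112). The adjusted p rose to 0.244 without GrnKO replicate 1 (log2 change 1.03) and to 0.0706 without GrnKO replicate 2 (1.33). It was 0.0187 without WT replicate 1 (0.77), 1.14e-05 without WT replicate 2 (1.60), and between 0.00555 and 0.0231 under the other scalings, filters and count tests that left the input unused.

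The input was uneven at this upstream region. On the deposited scale the input of WT replicate 1 held 35.6 scaled tags against 31.6 in its H3K27ac library, and the input of GrnKO replicate 2 held 18.4 against 115, while the inputs of WT replicate 2 and GrnKO replicate 1 held 0 and 0.69. In the input of WT replicate 1 the floor of 3 tags stands at 7.36 scaled tags. Subtracting the inputs, with values below 0 set to 0, left a log2 change of 3.70 that did not pass the test (limma adjusted p = 0.378), a setting under which 1 region of the whole table was called.

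The other H2-D1 regions were closer between the genotypes. The region with its centre 3817 bp upstream held 41.5 and 55.8 TMM-scaled tags in WT and 71.8 and 53.5 in GrnKO, with overlapping groups and a log2 change of 0.36 (SE 0.293, limma adjusted p = 0.502). The start-site region, which holds the promoter printed above, had 79.0 and 90.6 in WT and 105 and 104 in GrnKO. There the GrnKO libraries were again above the WT libraries, with a log2 change of 0.30 (SE 0.222, limma adjusted p = 0.443). Within each library the upstream region stood at a log2 ratio of -1.04 and -0.40 to the start-site region in WT and of 0.32 and 0.03 in GrnKO. The upstream region was chosen for this ratio because it had been called in these same libraries, so the ratio is no separate support. The ratio differed by 0.89, for which a two-sided exact permutation test cannot go below p = 0.333 with 2 libraries against 2 and gave that value (adjusted p = 0.333 over 5 such ratios). A further region inside the gene, 616 bp past the start site, carries the name H2-L in the table and is thus no member; its log2 change was -0.25 (SE 0.365, limma adjusted p = 0.737).

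The wider neighbourhood of H2-D1 was examined after its values had been seen. Within 50000 bp on either side of its start site the table lists 29 regions, of which 22 were tested, 4 were higher in GrnKO (6.8% of all tested regions were) and none was lower (2.92% of all were). Besides the H2-D1 region these were 3 intergenic regions assigned to Lta, the gene of the cytokine lymphotoxin alpha, with centres 48230, 47901 and 44235 bp upstream of H2-D1. Their log2 changes were 1.30, 1.39 and 0.61 (limma adjusted p = 0.00967, 0.0101 and 0.0384). The strongest of them held 133 and 146 TMM-scaled tags in WT and 197 and 230.0 in GrnKO. The 18 tested regions around and between them that were not called ranged from -0.38 to 1.03 in log2 change, with the highest of them 31800 bp upstream. The Lta-assigned regions at 48230 and 47901 bp overlap each other and are not separate measurements.

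**Figure D2:**
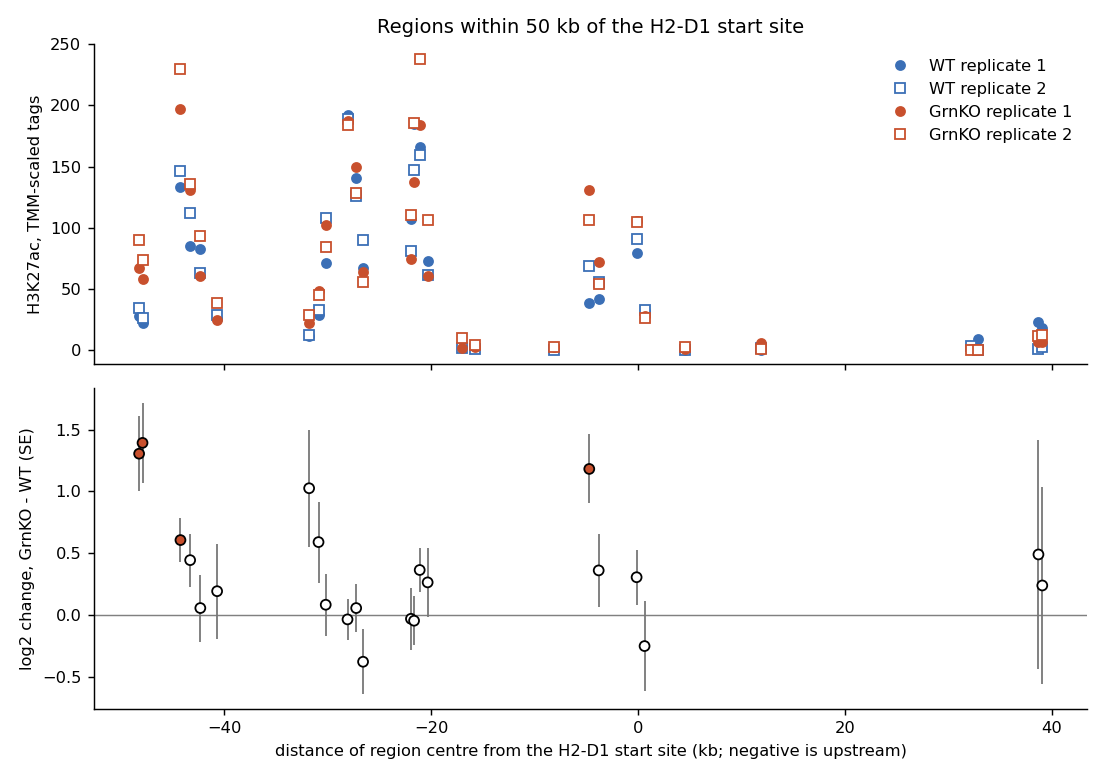
Regions within 50000 bp of the H2-D1 start site by distance of their centre (kb, negative is upstream), with TMM-scaled tags of each library above and the log2 change, GrnKO minus WT, with its standard error below for tested regions. The 4 filled points passed an adjusted p of 0.05, 3 of them 44235 bp or more and 1 at 4727 bp upstream of the start site.

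H2-K1 (chr17:33996012-34000619, minus strand) has 7 regions, of which 4 were too low to test. Its sum was 178 and 123 TMM-scaled tags in WT and 137 and 105 in GrnKO, with overlapping groups and a log2 change of -0.31 (SE 0.242, limma adjusted p = 0.472). It ranged from -0.57 without WT replicate 2 to -0.04 without WT replicate 1, and was -0.08 with the deposited scale alone. Its start-site region held 100.1 and 71.2 in WT against 71.3 and 61.1 in GrnKO. WT replicate 1 was the highest of the 4 libraries, the groups overlapped, and the log2 change was -0.35 (SE 0.258, limma adjusted p = 0.446). Since H2-D1 and H2-K1 share their promoter boxes, their ratio within each library was also taken: the log2 ratio of the H2-D1 sum to the H2-K1 sum was -0.16 and 0.81 in WT and 1.17 and 1.34 in GrnKO, a difference of 0.93 (exact permutation test, two-sided, p = 0.333, the smallest possible). H2-T23 (chr17:36029977-36032701, minus strand) has 2 regions, which summed to 131 and 104 in WT and to 108 and 120.2 in GrnKO. The groups overlapped, and the log2 change of -0.03 (SE 0.229, limma adjusted p = 0.946) became 0.19 with the deposited scale alone. The difference between the H2-D1 and H2-K1 changes has no test beyond that of the ratio.

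B2m (chr2:122147687-122153082, plus strand), whose product pairs with every classical heavy chain, carried the strongest start-site signal of the members. The region over its promoter held 298 and 308 TMM-scaled tags in WT and 286 and 302 in GrnKO. On the deposited scale its mean of 300.2 lay at percentile 97.5 of the 28205 regions within 1000 bp of a start site, all of the same width of 800 bp. The groups overlapped, and the log2 change was -0.04 (SE 0.142, limma adjusted p = 0.893). Over the 13 B2m regions the sum was 1023 and 1001 in WT and 929 and 976 in GrnKO, with a log2 change of -0.09 (SE 0.106, limma adjusted p = 0.667) that turned to 0.14 with the deposited scale alone. A weak intronic region 1766 bp past the start site had the most negative change of all member regions: 36.8 and 21.5 in WT and 13.0 and 8.31 in GrnKO. Both GrnKO values were below both WT values there, and the log2 change of -1.35 (SE 0.493) had an unadjusted p under the threshold but a limma adjusted p of 0.0947.

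None of the 5 members of peptide supply and loading passed the limma test at an adjusted p of 0.05 (8.6% of all genes were higher and 5.88% lower), while Tap2 and Psmb9 were lower at an unadjusted p under 0.05 (13.1% of all genes were) and DESeq2 called Psmb9. Psmb9, a catalytic subunit of the immunoproteasome (chr17:34182030-34187330, minus strand), and Tap1, one chain of the peptide transporter (chr17:34187556-34197225, plus strand), share the promoter printed above, and their regions overlap each other by 80 to 500 bp, so that they are not separate measurements. The 4 Psmb9 regions summed to 488 and 358 TMM-scaled tags in WT and to 291 and 290.0 in GrnKO. Both GrnKO libraries were below both WT libraries, and the GrnKO libraries were close together while the WT libraries were not. The means were 423 ± 92.4 and 291 ± 0.958 (SD, n = 2), with a log2 change of -0.52 (SE 0.170, limma adjusted p = 0.0557). The change passed the threshold with quantile normalization (limma adjusted p = 0.0387), with DESeq2 (adjusted p = 0.0402) and without WT replicate 2 (limma adjusted p = 0.000163, log2 change -0.75). It shrank to -0.30 without WT replicate 1 (limma adjusted p = 0.248) and to -0.30 with the deposited scale alone (limma adjusted p = 0.533).

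The Psmb9 start-site region held 254 and 183 in WT against 151 and 144 in GrnKO. These groups did not overlap, and the log2 change was -0.55 (SE 0.189, limma adjusted p = 0.0774). The strongest Tap1 region, which shares 500 bp with it, held 183 and 140 in WT and 124 and 104 in GrnKO, with a log2 change of -0.49 (SE 0.206, limma adjusted p = 0.150). Over its 2 regions Tap1 summed to 267 and 210.1 in WT and to 189 and 171 in GrnKO, again without overlap, with a log2 change of -0.40 (SE 0.189, limma adjusted p = 0.197) that passed the threshold only without WT replicate 2 (limma adjusted p = 0.0267, log2 change -0.57). The Tap1 sum shrank to -0.22 without WT replicate 1 (limma adjusted p = 0.515) and to -0.17 with the deposited scale alone (limma adjusted p = 0.777). The start-site changes of Psmb9 and Tap1 likewise ranged from -0.78 and -0.68 without WT replicate 2 (limma adjusted p = 0.00187 and 0.0176) to -0.31 and -0.30 without WT replicate 1 (limma adjusted p = 0.303 and 0.399).

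Tap2, the partner of Tap1 in the transporter (chr17:34204479-34216321), was also lower in both GrnKO libraries. Its 4 regions summed to 116 and 140.1 TMM-scaled tags in WT and to 84.9 and 84.4 in GrnKO, with a log2 change of -0.58 (SE 0.234, limma adjusted p = 0.121). Its start-site region held 66.9 and 83.8 in WT against 46.7 and 42.9 in GrnKO. These groups did not overlap, and the log2 change was -0.73 (SE 0.275, limma adjusted p = 0.107). Without WT replicate 1 both passed the threshold, the sum at -0.72 (limma adjusted p = 0.0354) and the start-site region at -0.89 (limma adjusted p = 0.0322). With the deposited scale alone the sum stood at -0.36 (limma adjusted p = 0.540). Taken relative to B2m within each library, the log2 ratio of Psmb9 was -1.07 and -1.48 in WT and -1.67 and -1.75 in GrnKO, and that of Tap2 was -3.14 and -2.84 in WT and -3.45 and -3.53 in GrnKO. Both ratios were lower in both GrnKO libraries, with an exact permutation p of 0.333 for each, two-sided.

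Psmb8, the other immunoproteasome subunit in this cluster (chr17:34198195-34201454, plus strand), was split between its regions. The region just past its start site held 181 and 143 TMM-scaled tags in WT and 155 and 170 in GrnKO, with overlapping groups and a log2 change of 0.01 (SE 0.188, limma adjusted p = 0.987). The input of WT replicate 1 reached its highest member value there, 66.2 scaled tags from 27 tags, against 150 in the H3K27ac library on the same deposited scale. The neighbouring region, with its centre 485 bp before the start site, held 50.1 and 76.2 in WT and 41.0 and 29.99 in GrnKO. Both GrnKO values were below the WT values, with a log2 change of -0.80 (SE 0.321, limma adjusted p = 0.131). The sum over 3 regions was 244 and 220.3 in WT and 199 and 205 in GrnKO, and its log2 change of -0.20 (SE 0.174, limma adjusted p = 0.525) turned to 0.03 with the deposited scale alone and to -0.79 (limma adjusted p = 0.0804) with non-overlapping regions, a setting that drops the region just past the start site.

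Tapbp, the gene of tapasin (chr17:33919478-33929290, plus strand), overlapped between the genotypes in all 3 of its regions. Its sum was 177 and 119 TMM-scaled tags in WT and 151 and 152 in GrnKO, with a log2 change of 0.06 (SE 0.226, limma adjusted p = 0.907). WT replicate 1 was the highest and WT replicate 2 the lowest of the 4 libraries.

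Nlrc5 had the lowest signal. The table gives this gene (chr8:94434335-94527272) 2 overlapping regions, both in intron 11 of 48 and 12729 and 13256 bp from the start site that the table uses, and no region at a start site. Neither passed the filter singly. Their sum was 3.53 and 4.45 TMM-scaled tags in WT and 9.90 and 10.4 in GrnKO. The sum passed the filter on low values only through the GrnKO libraries, where it is higher, so that its direction was tied to that filter. The log2 change of 1.16 (SE 0.787) did not pass the test (limma adjusted p = 0.385). The first of the pair held 1.5 and 1.5 tags in WT, under the floor of 3 tags, and 12 and 11.5 in GrnKO, and the input of GrnKO replicate 1 held 5.20 scaled tags in each. The region at the 5′ end of the Nlrc5 gene body is assigned to a non-coding gene, 9330175E14Rik, and held 56.3 and 31.9 TMM-scaled tags in WT and 47.8 and 37.4 in GrnKO, with overlapping groups and a log2 change of -0.01 (SE 0.341, limma adjusted p = 0.995).

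**Figure D3:**
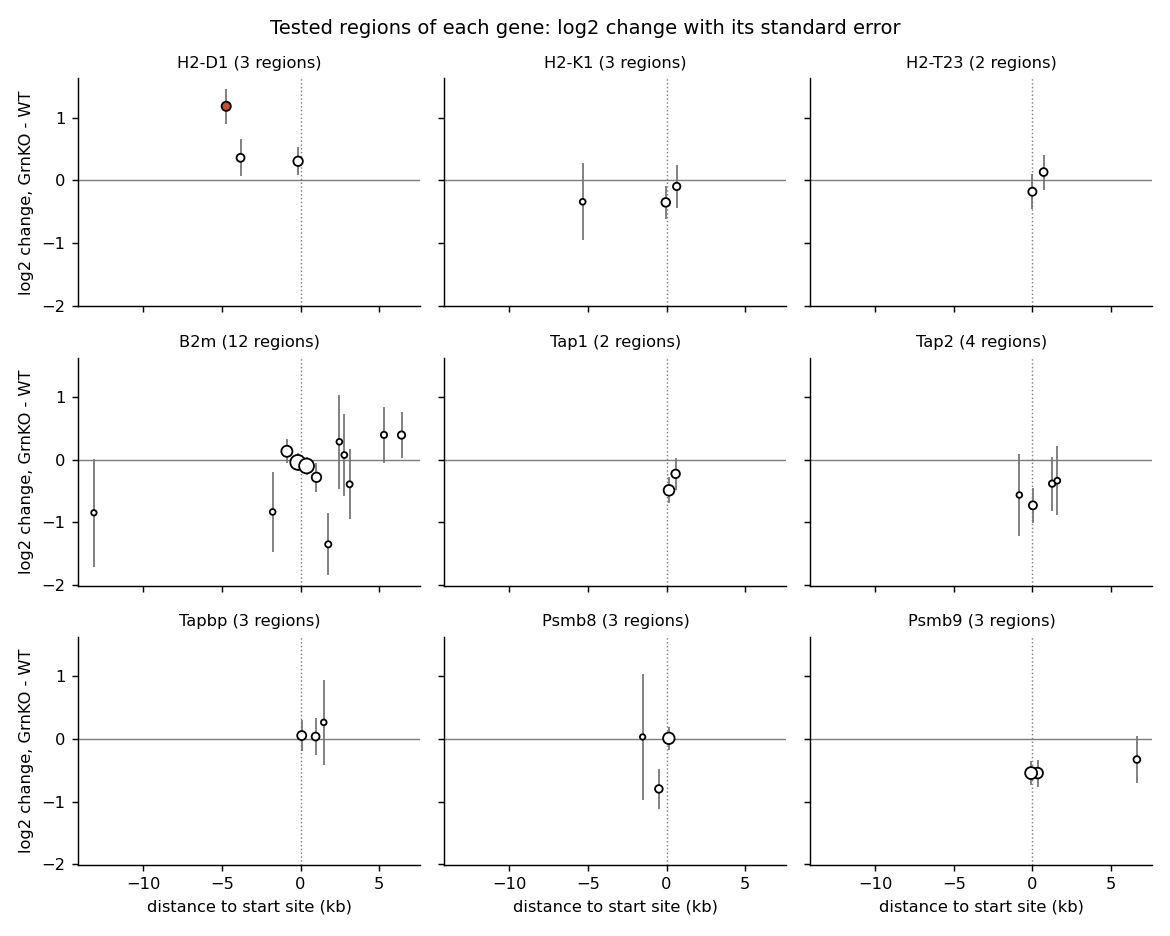
Log2 change, GrnKO minus WT, with its standard error for each tested region of 9 members against the distance of its centre from the start site (kb); marker size grows with the mean deposited value, and the filled point passed an adjusted p of 0.05. The regions at the start sites of Psmb9, Tap1 and Tap2 lie below 0 (-0.55, -0.49 and -0.73) and the filled H2-D1 region at 1.18; Nlrc5 had no tested region.

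The order of the start-site signal over the members, in mean WT TMM-scaled tags of the 800 bp region that has the highest deposited mean over the 4 libraries, was B2m (303), Psmb9 (218), Psmb8 (162), Tap1 (161), H2-K1 (85.7), H2-D1 (84.8), Tapbp (83.9), Tap2 (75.3) and H2-T23 (65.2). In GrnKO it was B2m (294), Psmb8 (162), Psmb9 (147), Tap1 (114), H2-D1 (105), Tapbp (86.1), H2-K1 (66.2), H2-T23 (56.9) and Tap2 (44.8). In WT each neighbour in the order from H2-K1 to H2-T23 overlapped the next in its libraries, as did Psmb8 and Tap1. In GrnKO Tap1 overlapped H2-D1, H2-K1 and H2-T23 met at 61.1, and the other neighbours did not overlap. Relative to all 28205 start-site regions the 9 members lay between percentiles 70.2 (Tap2) and 97.5 (B2m) on the deposited scale. In the deepest input, of GrnKO replicate 1, 20 of the 43 member regions had no tag and the highest held 21.9 scaled tags. In the shallower inputs 26 to 38 regions had none, which their floors of 3.21 to 7.36 scaled tags limit.

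The rest of the class I pathway was taken from lists of heavy chains, class I-like molecules, loading factors, proteasome subunits and transcription factors. Of 15 other class I heavy chains 14 were in the table and 11 were tested. By limma none was called in either direction (8.6% of all genes were called higher and 5.88% lower), nor did any have an unadjusted p under 0.05 (13.8% and 13.1% of all genes did), and edgeR and DESeq2 also called none. The median log2 change was -0.04. The smallest p-values belonged to H2-Q7 (-1.79, adjusted p = 0.188), H2-M5 (-0.44, adjusted p = 0.430) and H2-Q4 (-0.20, adjusted p = 0.706) on the negative side. On the positive side H2-M2 stood at 0.60 (limma adjusted p = 0.696) and H2-Q2 at 0.03 (limma adjusted p = 0.986).

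Among the 4 class I-like genes 1 rose and 1 fell (8.6% and 5.88% of all genes did), and at an unadjusted p under 0.05 1 was higher and 3 were lower (13.8% and 13.1% of all genes). Mr1, which presents vitamin B metabolites to innate-like T cells, summed to 303 and 286 TMM-scaled tags in WT and to 580.4 and 544 in GrnKO. The GrnKO values were all higher, with a log2 change of 0.93 (SE 0.140, limma adjusted p = 0.000655), and its start-site region rose by 0.96 (limma adjusted p = 0.00540). Hfe, whose product regulates iron uptake, summed to 1106 and 895 in WT and to 539 and 567 in GrnKO. Both GrnKO libraries were lower, with a log2 change of -0.85 (SE 0.130, limma adjusted p = 0.000735), which did not pass with the deposited scale alone (-0.62, limma adjusted p = 0.0646). Fcgrt, the neonatal Fc receptor, and Cd1d1, which presents lipids, stood at -0.72 and -0.67 without passing the test (limma adjusted p = 0.104 and 0.139).

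Of the 5 loading and trimming genes none was called by limma, edgeR or DESeq2, 3 had an unadjusted p under 0.05, all on the negative side (13.1% of all genes did), and the median was -0.40. The chaperones of the loading complex Calr and Pdia3 stood at -0.83 and -0.73 (limma adjusted p = 0.0874 and 0.0966) and the tapasin relative Tapbpl at -0.40 (limma adjusted p = 0.176). Canx, the calnexin gene, stood at 0.27 (limma adjusted p = 0.347). Of the 6 other proteasome genes 1 rose and 1 fell (8.6% and 5.88% of all genes did). Psme1, a subunit of the interferon-inducible proteasome activator, fell by 0.66 on the log2 scale (SE 0.179, limma adjusted p = 0.0245) from 397 and 305 TMM-scaled tags in WT to 203 and 237 in GrnKO, and missed the threshold with the deposited scale alone (-0.44, limma adjusted p = 0.299) and without WT replicate 1 or either GrnKO replicate (limma adjusted p from 0.0632 to 0.251). Psmb6, the constitutive subunit that Psmb9 replaces, was higher by 1.86 (SE 0.274, limma adjusted p = 0.00056). That rested on a region at its transcription end, 3455 bp from its start site, with 17.99 and 18.3 in WT against 106 and 100.4 in GrnKO, while its start-site region had a log2 change of 0.44 (limma adjusted p = 0.676).

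None of the 13 transcription factor genes was called by limma, edgeR or DESeq2, where limma called 8.6% of all genes higher and 5.88% lower. At an unadjusted p under 0.05, 1 was lower and none higher (13.1% and 13.8% of all genes were), and the median was -0.12. The smallest p-values on the negative side were those of Creb1 (-0.22, adjusted p = 0.106), Nfyb (-0.74, adjusted p = 0.208) and Irf8 (-0.14, adjusted p = 0.232), and on the positive side those of Nfya (0.29, adjusted p = 0.307), Rfxap (0.13, adjusted p = 0.799) and Nfkb1 (0.02, adjusted p = 0.912). With the deposited scale alone the list medians moved up with that of all genes, to 0.18 for the other heavy chains, -0.47 for the class I-like genes, -0.17 for loading and trimming, 0.33 for the proteasome genes and 0.11 for the transcription factors.

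For comparison, none of the 11 class II genes was called higher by limma, edgeR or DESeq2, 0 were higher and 5 lower at an unadjusted p under 0.05 (13.8% and 13.1% of all genes were), and 3 were called lower by limma (2 by edgeR, 4 by DESeq2; 5.88% of all genes by limma), with a median of -0.57: Cd74, the invariant chain (-0.89, limma adjusted p = 0.00626), H2-DMb2, a chain of the peptide-exchange factor (-0.43, limma adjusted p = 0.0156), and H2-Eb1, a class II beta chain (-0.99, limma adjusted p = 0.0452). All 11 had a negative log2 change, against 7 of the 10 class I members and 8327 of all 15380 tested genes (signs on the TMM scale, where the deposited scale moves all genes upward), and the difference between the lists was not tested. With the deposited scale alone 1 class II gene was called lower, with a median of -0.34, and neither H2-DMb2 nor H2-Eb1 passed. Each class II call was lost when a library was left out: Cd74 without GrnKO replicate 1 (limma adjusted p = 0.0673), H2-DMb2 without GrnKO replicate 1 or 2 (0.103 and 0.197), and H2-Eb1 without WT replicate 1 (0.0698) or GrnKO replicate 2 (0.421, log2 change -0.62). Of 20 interferon-stimulated genes 19 were tested. None was called higher by limma, edgeR or DESeq2, 1 was higher and 5 were lower at an unadjusted p under 0.05, where 13.8% and 13.1% of all genes were, and 3 were called lower by limma (2 by edgeR, 3 by DESeq2; 5.88% of all genes by limma): Ifitm3 (-0.57, limma adjusted p = 0.00432), Gbp3 (-0.61, limma adjusted p = 0.0291) and Mx1 (-0.59, limma adjusted p = 0.0415). Their median was -0.18, and with the deposited scale alone none of the 3 passed and the median was 0.05. Without GrnKO replicate 2 none of the 3 passed (limma adjusted p = 0.0637, 0.167 and 0.353), and without GrnKO replicate 1 Gbp3 and Mx1 did not (0.235 and 0.145).

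**Figure D4:**
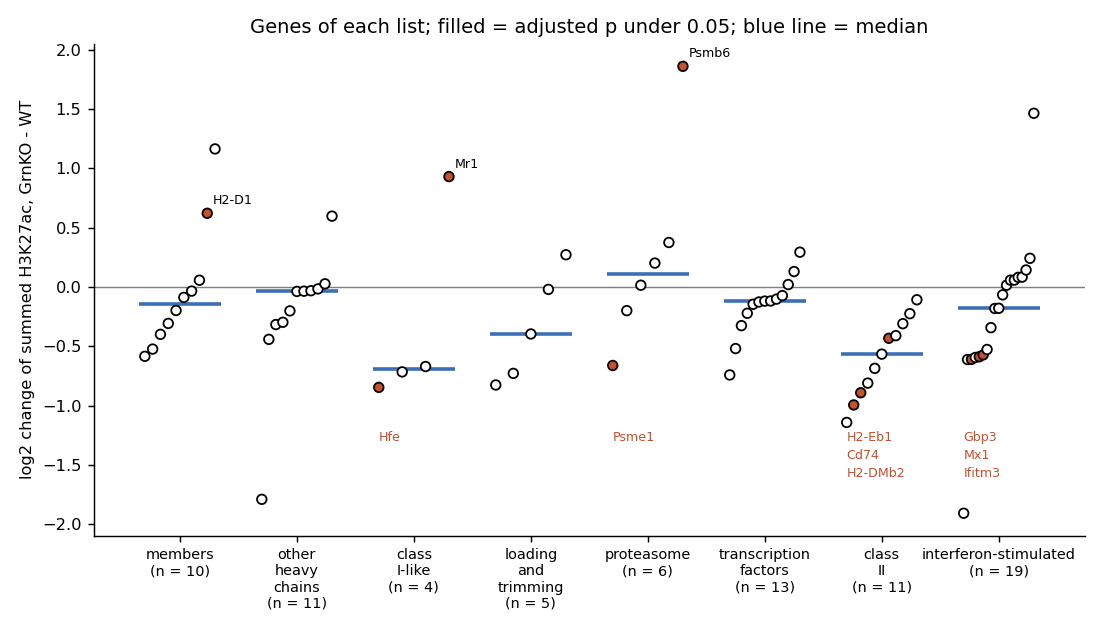
Log2 change of summed H3K27ac, GrnKO minus WT, for every tested gene of each list (columns, with the number tested), with blue lines at the list medians; filled points passed an adjusted p of 0.05, and those below 0 are named under their column from the most negative. The members' median is -0.14 with H2-D1 as the filled point, and the class II median is -0.57 with 3 filled points.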

How the data were processed

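The authors deposited 1 table of H3K27ac and input signal in accessible regions. Per the file headers, the values are signal: tags scaled to 10000000 per library, from tag directories of the HOMER kind. The submitters' processing notes name mm10, Bowtie2, HOMER and DESeq2 without versions; the alignment settings and the handling of duplicate and multiply mapped reads are not given in the sources used here. Multiplying by the library totals returned whole read ends, 2 per tag, for 100% of values in all 8 columns.

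Signal was divided by TMM factors (edgeR 4.0.16) and tested as log2(value + 1) with limma 3.58.1 in R 4.3.3 (lmFit, eBayes with trend, genotype only) over the 4 H3K27ac libraries, for all regions, and for all genes summed over their regions, that passed filterByExpr with a minimum of 10 tags; Benjamini-Hochberg adjustment ran over the whole table, with a threshold of 0.05. Fold changes of low regions are understated on this scale. Counting intervals and floors cover counting error only. edgeR's quasi-likelihood test and DESeq2 1.42.0 on the recovered whole read ends were alternatives; edgeR called 4905 regions of the table higher and 2020 lower. The members and lists, and the tests, were chosen with earlier results of these data known. The text names all 10 members, for each its strongest region within 1000 bp of the start and every region past the threshold, and of each other list the genes past the threshold, otherwise the 3 with the smallest p in each direction; further regions were named after their values were seen. Same-numbered libraries come from different mice, and the labels give no sex. Some marker genes are not reported here.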

Additional observations from a re-analysis of the deposited data

How the results depend on the processing

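Leaving out 1 library in turn (the lone library left is then assumed to vary like the other genotype) gave 0 to 1 member regions higher and 0 to 4 lower, and 0 to 1 member genes higher and 0 to 2 lower. Over all genes, more were called in each direction than in the main fit when a WT library was left out. Fewer were called when a GrnKO library was left out. The member counts are therefore not specific to the members, and no conclusion is drawn from them. The log2 change ranged from 0.40 to 0.84 for the H2-D1 sum and from 0.77 to 1.60 for its upstream region. It changed sign for the sums of H2-T23 (-0.20 to 0.13) and Tapbp (-0.22 to 0.34) and for the start-site regions of Psmb8 (-0.16 to 0.18), Tapbp (-0.17 to 0.27) and H2-T23 (-0.41 to 0.044), none of which passed a test. Without GrnKO replicate 1 or 2 the whole table had 1139 or 1460 regions higher and 196 or 414 lower, against 5488 and 2355, and without WT replicate 1 or 2 it had 8517 or 9590 and 4382 or 4729.

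Among the other settings, the H2-D1 sum lost its call with quantile normalization (0.58), no filter (0.62), input subtracted (0.77), only regions near a start site (0.30) and only regions that passed the region filter (0.62), so that 0 member genes were then higher. With input subtracted 0 member regions were higher, the upstream H2-D1 region stood at 3.70 without passing, and 0 genes of the table were called in either direction. Lower calls appeared with quantile normalization (1 gene, where 1039 of all 15380 were lower) and DESeq2 (1 gene, where 915 of all were). At a threshold of 0.1 they were 2 regions, where 4174 of all 80728 were lower, and 1 gene, where 1386 of all 15380 were. The authors' scaling alone turned the signs of the sums of H2-T23 (0.19), B2m (0.14) and Psmb8 (0.028) and of the start-site regions of B2m (0.18) and H2-T23 (0.042), with a lower-called count over all genes of 166 against 904. Further sign changes were H2-T23 with non-overlapping regions (0.13) and with edgeR on tags whose 2 ends count as 1 (0.0019, added after seeing the data), Psmb8 (0.16) and Nlrc5 (-0.38) with input subtracted, the B2m (0.015) and Tapbp (-0.0081) start-site regions with quantile normalization and the Psmb8 start-site region with DESeq2 (-0.0032). For H2-T23 the setting of non-overlapping regions keeps only the region 709 bp past the start site, so its 0.13 is the change of that region. The cause of the other changes was not tested. Of all alternative values computed 404 kept their direction and side of the threshold, 52 lost and 10 gained a call, 19 reversed and 21 were counts that moved by over 1.5 times. At 2 libraries a genotype the inputs, at 4078179 tags in the shallowest, limit what subtraction can show.

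The replicate numbers were not treated as pairs in the main fit. The deviations of same-numbered libraries correlated at 0.034 over 80728 regions. With 2 libraries a genotype this cannot show whether same-numbered libraries shared a batch. With the replicate block 2 member regions and 1 member gene (Psmb9) were called lower, and the H2-D1 sum kept its call (limma adjusted p = 0.0240). The table then had 7403 regions higher and 3988 lower, and 1604 genes higher and 1237 lower of 15380.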
